A study of Homo sapiens with 18 samples.

Results

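The genes described here are 5 receptors of the tumour necrosis factor (TNF) receptor superfamily and 2 regulators inside the cell, 7 of the 1242 genes in the authors' deposited table. They were taken from that table by name: TNFRSF10A, TNFRSF10B, TNFRSF1A, TNFRSF21, TNFRSF12A, BID and BIRC3. The cells were UMRC2, a line established from a clear cell renal carcinoma and grown in DMEM with serum per the labels, and their RNA was sequenced. All groups share the VHL deficiency of this line. The cells carried a short hairpin RNA against FTO, as shFTO#5 (2 libraries) or shFTO#2 (2 libraries), or the control hairpin shControl (2 libraries), and no other treatment is labelled. FTO takes the methyl group off N6-methyladenosine (m6A), a mark on messenger RNA. Only genes called by the authors with shFTO#5, at an adjusted p under 0.05, are in the table. The genes were thus selected on the authors' fold changes and adjusted p-values in that contrast, and their change with shFTO#5 is given as a description, with no test.

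TNF receptors are surface proteins that assemble signalling complexes on their inner side once a ligand of the TNF family binds. The receptors with a death domain can start caspase cleavage and cell death, and several receptors of the family also switch on the transcription factor NF-kB, which induces survival genes. BID carries the death signal from caspase-8 to mitochondria, and BIRC3 is a ubiquitin ligase of the inhibitor of apoptosis family that steers TNF receptor complexes towards survival. Cells of the renal tubule and of renal carcinomas express several of these receptors.

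The start regions of 3 of the genes are shown because they differ in the sequence matches they hold. RefSeq windows on build GRCh38.p14, from 250 bases before to 50 bases after the start, were at hand for 4 of the 7 genes. They are printed 5′ to 3′ in the direction of the gene for those with a single window, and BID had 5 windows. In the BIRC3 window (chr11:102317234-102317533, plus strand) capitals mark matches to the NF-kB consensus. In the TNFRSF21 window (chr6:47309856-47310155, minus strand) capitals mark GGGCGG, the GC box, read on the opposite strand. The TNFRSF1A window (chr12:6342027-6342326, minus strand) held neither.
BIRC3: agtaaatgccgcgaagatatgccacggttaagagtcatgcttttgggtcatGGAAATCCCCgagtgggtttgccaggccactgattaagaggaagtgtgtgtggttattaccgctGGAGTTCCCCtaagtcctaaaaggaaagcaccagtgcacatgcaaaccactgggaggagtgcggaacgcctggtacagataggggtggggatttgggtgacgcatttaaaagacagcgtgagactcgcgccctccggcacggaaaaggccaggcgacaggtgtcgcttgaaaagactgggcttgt
TNFRSF21: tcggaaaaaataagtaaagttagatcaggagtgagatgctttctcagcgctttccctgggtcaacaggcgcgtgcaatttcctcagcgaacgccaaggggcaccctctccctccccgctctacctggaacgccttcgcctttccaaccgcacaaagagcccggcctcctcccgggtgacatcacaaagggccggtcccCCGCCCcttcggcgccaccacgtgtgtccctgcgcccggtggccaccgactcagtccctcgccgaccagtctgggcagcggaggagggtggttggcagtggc
TNFRSF1A: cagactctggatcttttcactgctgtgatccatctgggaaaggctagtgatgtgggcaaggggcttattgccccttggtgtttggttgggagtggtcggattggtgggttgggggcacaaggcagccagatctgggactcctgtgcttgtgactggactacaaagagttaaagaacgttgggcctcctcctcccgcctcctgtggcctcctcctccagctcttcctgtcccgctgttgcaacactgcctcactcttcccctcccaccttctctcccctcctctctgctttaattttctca

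Both strands of every window were searched for 4 motifs: the NF-kB consensus, the GC box GGGCGG, the AP-1 site TGANTCA and the TATA box TATAAA. BIRC3 had 2 NF-kB matches, 126 to 135 and 190 to 199 bases before the start, both on the strand opposite to the gene. The windows of TNFRSF1A, TNFRSF21 and BID had 0. Of all 35116 windows in the RefSeq set, 5.91% held at least 1 NF-kB match. GGGCGG was found in the TNFRSF21 window and in 4 of the 5 BID windows, against 45.0% of all windows. The AP-1 site and the TATA box were in 0 of the windows of these 4 genes, and in 7.71% and 11.5% of all windows. A match is a string of letters in this stretch and says nothing of binding in these cells.

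FTO itself was low in the knockdown libraries. It measured 0.555 and 0.526 FPKM (reads scaled to gene length and library total) with shFTO#5, 0.882 and 0.720 FPKM with shFTO#2, and 1.99 and 2.37 FPKM with shControl. The library totals, inferred as the numbers that turn the FPKM values into whole reads, ranged from 14548533 to 18184675 reads. Of 8 renal epithelium and renal carcinoma markers, 6 were in the table, where 13.0% of all genes tested by the authors were called. Being in the table means a call with shFTO#5, so this count says nothing of the identity of the cells. Among all called genes 62.9% were higher. PAX8, CA9, KRT8 and KRT18 were higher with shFTO#5, as in PAX8 with 90.2 and 86.9 FPKM with shFTO#5 and 79.3 and 76.4 FPKM with shControl. PAX2 and LRP2 were lower, PAX2 with 4.95 and 5.10 FPKM with shFTO#5 and 7.80 and 7.60 FPKM with shControl, and LRP2 with 2.86 and 2.66 FPKM with shFTO#5 and 4.98 and 4.27 FPKM with shControl. Of 11 immune, endothelial and fibroblast markers, 0 were in the table, which lists called genes only.

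All 7 genes were higher with shFTO#5, with a median change of 0.22 in log2(FPKM + 1). Over all 1242 listed genes the median was 0.15, with 781 higher and 461 lower. The authors' calls were 13.0% of the 9551 genes that their adjusted p-values imply were tested, with 8.18% called higher and 4.83% called lower with shFTO#5. Because this contrast chose the genes, nothing is read from their count. In all 7 genes both shFTO#5 libraries lay above both shControl libraries, as in all 781 listed genes that were higher. The changes ran from 0.11 for TNFRSF12A to 0.52 for TNFRSF10A, so all were under a doubling. In bulk RNA, more cells expressing a gene and more RNA per cell cannot be told apart.

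**Figure D1:**
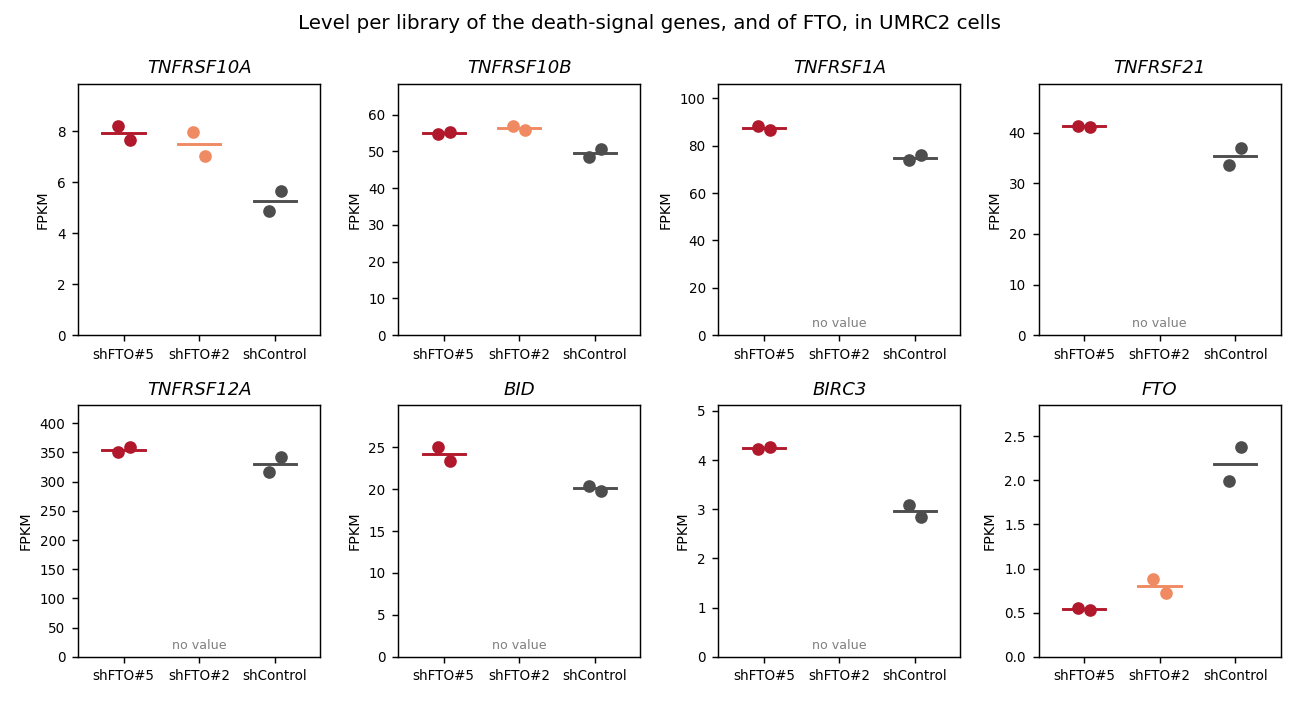
FPKM per library (points) and group mean (line) for the 7 genes and FTO, with shFTO#5, shFTO#2 and shControl from left to right; axes start at 0. In each of the 7 genes both shFTO#5 points lie above both shControl points, by 8.37 FPKM in TNFRSF12A and 2.00 FPKM in TNFRSF10A, and only TNFRSF10A, TNFRSF10B and FTO have shFTO#2 values.

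TNFRSF10A (ENSG00000104689; hg38 chromosome 8, 23190452 to 23225126, minus strand, protein coding) encodes death receptor DR4, which binds the ligand TRAIL. Its level was 8.23 and 7.65 FPKM with shFTO#5 (325 and 349 reads) and 4.86 and 5.65 FPKM with shControl (240 and 249 reads). Both shFTO#5 libraries stood above both controls, the lowest of them at 1.35 times the highest control. The means were 7.94 ± 0.410 FPKM with shFTO#5 and 5.25 ± 0.554 FPKM with shControl (SD, n = 2 each), a ratio of 1.51. The difference in log2(FPKM + 1), a scale that shrinks the change of low genes, was 0.52 ± 0.07 (SE from limma). With all libraries it was the largest among the 7 genes and rank 49 among the rises of all listed genes. Without shControl replicate 1 it was 0.43, below the 0.45 of BIRC3.

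TNFRSF10B (ENSG00000120889; hg38 chromosome 8, 23020133 to 23069179, minus strand, protein coding) encodes DR5, the other TRAIL receptor with a death domain. It measured 54.6 and 55.3 FPKM with shFTO#5 and 48.5 and 50.7 FPKM with shControl, from 3294 to 3854 reads per library. The groups did not overlap, but the rise was small: the ratio of means was 1.11 and the log2 difference 0.14 ± 0.04 (SE), close to the median of all listed genes. With the libraries centred on their median over the listed genes it was 0.06. In hg38 the gene lies 121273 bases from TNFRSF10A on the same strand, with 2 further TNF receptor genes between them, TNFRSF10C and TNFRSF10D, which are not analysed here.

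The TRAIL receptors also had values with shFTO#2. The shFTO#2 values stand in a gene order of their own in the table. They were tied to genes through whole read counts, gene order and agreement with the authors' shFTO#2 fold change. Agreement in direction with the authors' fold changes was thus built into these values. Without the fold change criterion the same values were tied to TNFRSF10A and TNFRSF10B. TNFRSF10A measured 7.96 and 7.04 FPKM with shFTO#2 (377 and 298 reads) and TNFRSF10B measured 57.0 and 55.8 FPKM. Both genes were thus above both shControl libraries in all 4 knockdown libraries. The log2 difference of shFTO#2 from shControl was 0.44 ± 0.08 (SE) for TNFRSF10A and 0.18 ± 0.04 for TNFRSF10B. With centred libraries these were 0.29 and 0.03. The shFTO#2 comparison uses the same shControl libraries as the shFTO#5 one and is no independent check of it. In the authors' deposited table the shFTO#2 log2 fold changes, turned to knockdown over control, were 0.35 for TNFRSF10A (adjusted p = 0.0391) and 0.20 for TNFRSF10B (adjusted p = 0.00783). Calls with shFTO#2 were 7.63% of the 10038 genes their adjusted p-values imply, and calls higher with shFTO#2 were 4.17%.

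Between the hairpins the TRAIL receptors differed by about their error. The shFTO#5 minus shFTO#2 difference was 0.07 ± 0.08 (SE, log2) for TNFRSF10A and -0.04 ± 0.04 for TNFRSF10B. These differences were not tested, since the shFTO#5 values had chosen the genes. For the other 5 genes no shFTO#2 value could be tied to the gene. Genes not called with shFTO#2 have no value, and whether these 5 changed with that hairpin is not analysed here.

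TNFRSF1A (ENSG00000067182; hg38 chromosome 12, 6328757 to 6342114, minus strand, protein coding) encodes TNFR1, the main death domain receptor for TNF. It measured 88.5 and 86.6 FPKM with shFTO#5 and 73.8 and 76.0 FPKM with shControl. The replicates of each group lay close together and the groups were 10.6 FPKM apart at their nearest. The means were 87.6 ± 1.33 FPKM with shFTO#5 and 74.9 ± 1.56 FPKM with shControl (SD, n = 2 each), a ratio of 1.17. The log2 difference was 0.22 ± 0.04 (SE). In the authors' deposited table it had the lowest adjusted p of the 7, 0.000212.

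TNFRSF21 (ENSG00000146072; hg38 chromosome 6, 47231532 to 47309905, minus strand, protein coding) encodes DR6, a death domain receptor best known from neurons and T cells. It measured 41.4 and 41.2 FPKM with shFTO#5 and 33.7 and 37.1 FPKM with shControl. The control libraries differed by 3.37 FPKM, less than the 4.10 FPKM between the nearest libraries of the groups. The ratio of means was 1.17 and the log2 difference 0.22 ± 0.05 (SE).

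TNFRSF12A (ENSG00000006327; hg38 chromosome 16, 3018445 to 3022383, plus strand, protein coding) encodes Fn14, the receptor for TWEAK, which has no death domain and signals through TRAF adaptors. It measured 351 and 359 FPKM with shFTO#5 and 317 and 343 FPKM with shControl. The groups did not overlap, but the control libraries were 25.4 FPKM apart, as far as the group means (25.0 FPKM). The ratio of means was 1.08 and the log2 difference 0.11 ± 0.03 (SE), the smallest of the 7. It was 0.05 without shControl replicate 1, 0.16 without shControl replicate 2 and 0.02 with centred libraries. In the authors' deposited table its adjusted p of 0.0217 was the highest of the 7, where the largest in the whole table was 0.0499.

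BID (ENSG00000015475; hg38 chromosome 22, 17734138 to 17774770, minus strand, protein coding) encodes the BH3-only protein that caspase-8 cleaves. Its level was 25.0 and 23.4 FPKM with shFTO#5 (906 and 980 reads) and 20.3 and 19.8 FPKM with shControl (921 and 803 reads). Here the spread lay in the knockdown libraries, and the lowest of them was 1.15 times the highest control. The ratio of means was 1.21 and the log2 difference 0.26 ± 0.05 (SE).

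BIRC3 (ENSG00000023445; hg38 chromosome 11, 102317450 to 102339403, plus strand, protein coding) encodes cIAP2 and is a textbook NF-kB target. Among the genes with start windows it was the only one with NF-kB matches, while TNFRSF10A, TNFRSF10B and TNFRSF12A had no window at hand. Whether NF-kB acts on BIRC3 in these cells was not tested. Its level was 4.23 and 4.26 FPKM with shFTO#5 (320 and 372 reads) and 3.08 and 2.84 FPKM with shControl (291 and 240 reads). The shFTO#5 libraries were 1.37 times the highest control or more. The means were 4.25 ± 0.0188 FPKM with shFTO#5 and 2.96 ± 0.168 FPKM with shControl (SD, n = 2 each), a ratio of 1.43. The log2 difference was 0.41 ± 0.06 (SE), and 0.52 without the pseudocount of 1.

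**Figure D2:**
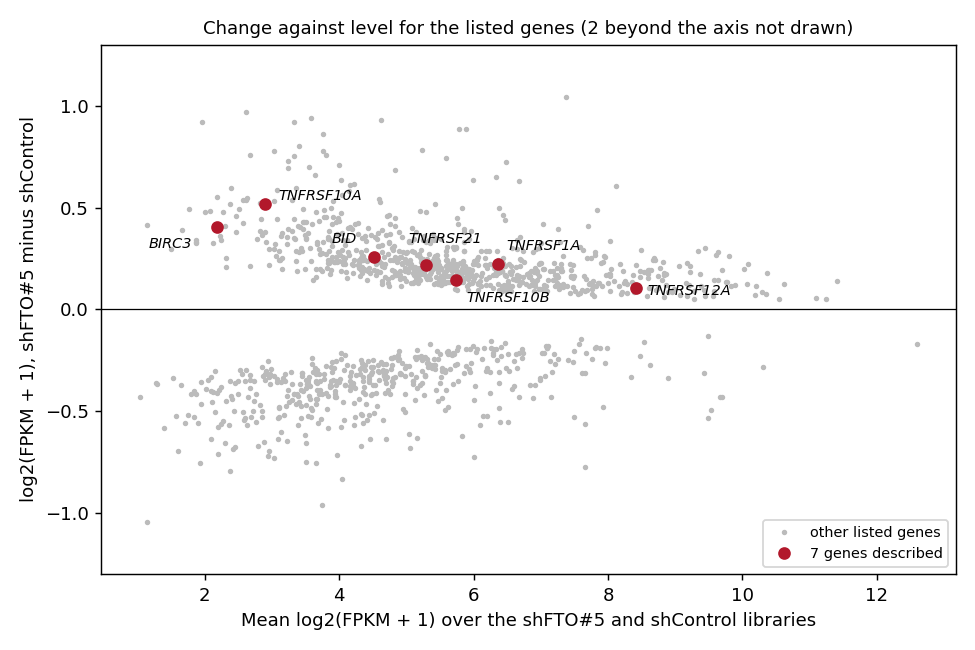
Mean log2(FPKM + 1) over the 4 shFTO#5 and shControl libraries (x axis) against the log2 difference of shFTO#5 minus shControl (y axis), 1 point per listed gene, with the 7 genes in red and 2 genes beyond the y axis not drawn. TNFRSF10A and BIRC3 sit at the low levels with the large differences and TNFRSF12A at a high level with a small one; the table lists called genes only.

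The 7 genes span a wide range of levels. In shControl cells the order was TNFRSF12A, TNFRSF1A, TNFRSF10B, TNFRSF21, BID, TNFRSF10A and BIRC3, and the mean of TNFRSF12A was 111 times that of BIRC3 on the FPKM scale, which is per gene length. Every neighbouring pair in this order was separate over the shFTO#5 and shControl libraries. The nearest were TNFRSF10A, at 4.86 FPKM in its lowest library, and BIRC3, at 4.26 FPKM in its highest. Among the listed genes, the shControl mean of TNFRSF12A was at the 93.2 percentile, TNFRSF21 at the 51.4 and BIRC3 at the 1.77. The large log2 differences belonged to the genes of low level, TNFRSF10A and BIRC3. Only called genes are in the table, and a call needs a larger change where reads are few. Nothing is therefore read from this order of changes.

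Counting error was small beside most of these differences. The reads per library, recovered with the inferred library totals, ran from 240 to 10121. That gives a counting error of 6.45% for the least and 0.994% for the most covered value. For TNFRSF12A the shControl replicates differed by 7.69%, well beyond counting error, and for TNFRSF21 by 9.52%. For BIRC3 the shControl replicates differed by 8.0%, which is about what counting gives at its depth. Annotated genes on the other strand overlap TNFRSF10A (3 genes), TNFRSF10B (2 genes) and TNFRSF12A (1 gene, CLDN6), and the strand setting of the counting is not known, so reads of such pairs cannot be told apart. The labels do not say whether replicate libraries stem from separate cultures. The limma errors rest on how far replicate libraries lie apart, pooled in part over all fitted genes, and that spread may be technical. All fitted genes were called ones, and a call favours a small spread, so these errors may be too small.

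**Figure D3:**
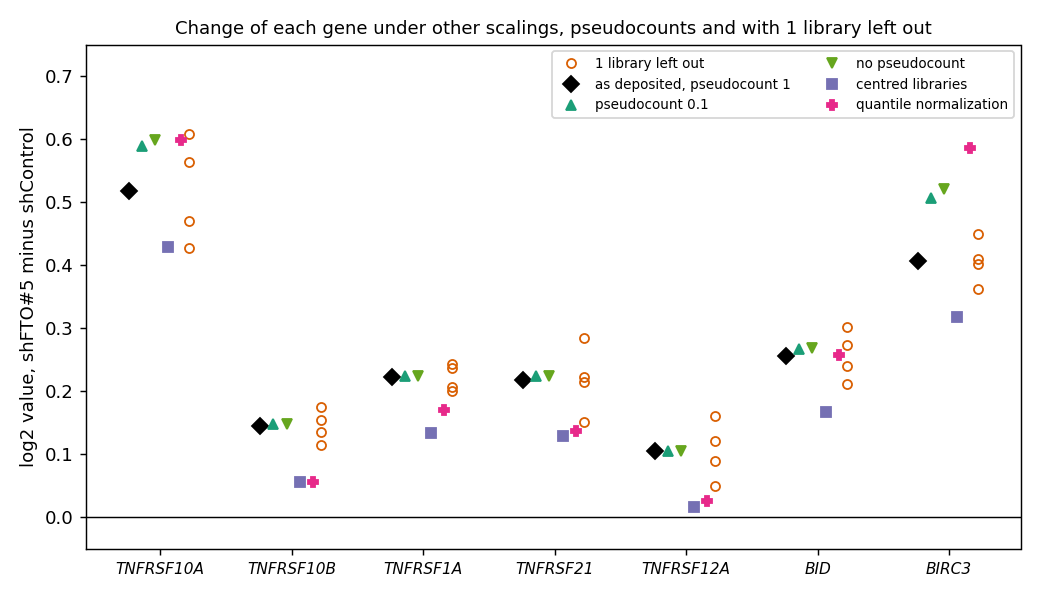
Log2 difference of shFTO#5 minus shControl for each of the 7 genes under the reported setting (diamonds), other pseudocounts, other scalings and with 1 of the 4 libraries left out (open circles). All points lie above 0, which only the scalings could have changed, because both shFTO#5 libraries lay above both controls in each gene. Those of TNFRSF12A reach down to 0.02 and those of TNFRSF10B to 0.06, while TNFRSF10A stays at 0.43 or above and BIRC3 at 0.32 or above.

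Scaling mattered more than any single library for the small changes. Centring each library lowered every shFTO#5 difference by 0.09, which left 0.43 for TNFRSF10A, 0.32 for BIRC3, 0.17 for BID, 0.13 each for TNFRSF1A and TNFRSF21, 0.06 for TNFRSF10B and 0.02 for TNFRSF12A. The last lay within its error of 0.03. After quantile normalization the differences were 0.60 for TNFRSF10A, 0.59 for BIRC3 and 0.03 for TNFRSF12A. All 7 stayed above 0 in both.

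Other genes of these pathways came from 11 lists holding 228 genes, of which 34 were in the table. Without the 7 genes, 27 were in the table, 17 of them higher and 10 lower with shFTO#5, with a median of 0.15. That is the median of all listed genes. The counts below are read beside the 13.0% of all tested genes that were called and the 62.9% of called genes that were higher. How many genes of each list were tested is not known, and no list was tested against the rest. The lists were chosen with earlier results of these data known, so a share above 13.0% is not read as enrichment. Of the 29 TNF receptor superfamily genes, 6 (20.7%) were in the table and all 6 were higher, or 5 of 6 after quantile normalization, but 5 of them are the receptors chosen from this contrast. The one not yet described is LTBR, the lymphotoxin beta receptor, at 123 and 125 FPKM with shFTO#5 and 112 and 117 FPKM with shControl. Its log2 difference was 0.11 ± 0.03 (SE), and -0.01 after quantile normalization. Of 18 ligands of the TNF family, 0 were in the table.

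**Figure D4:**
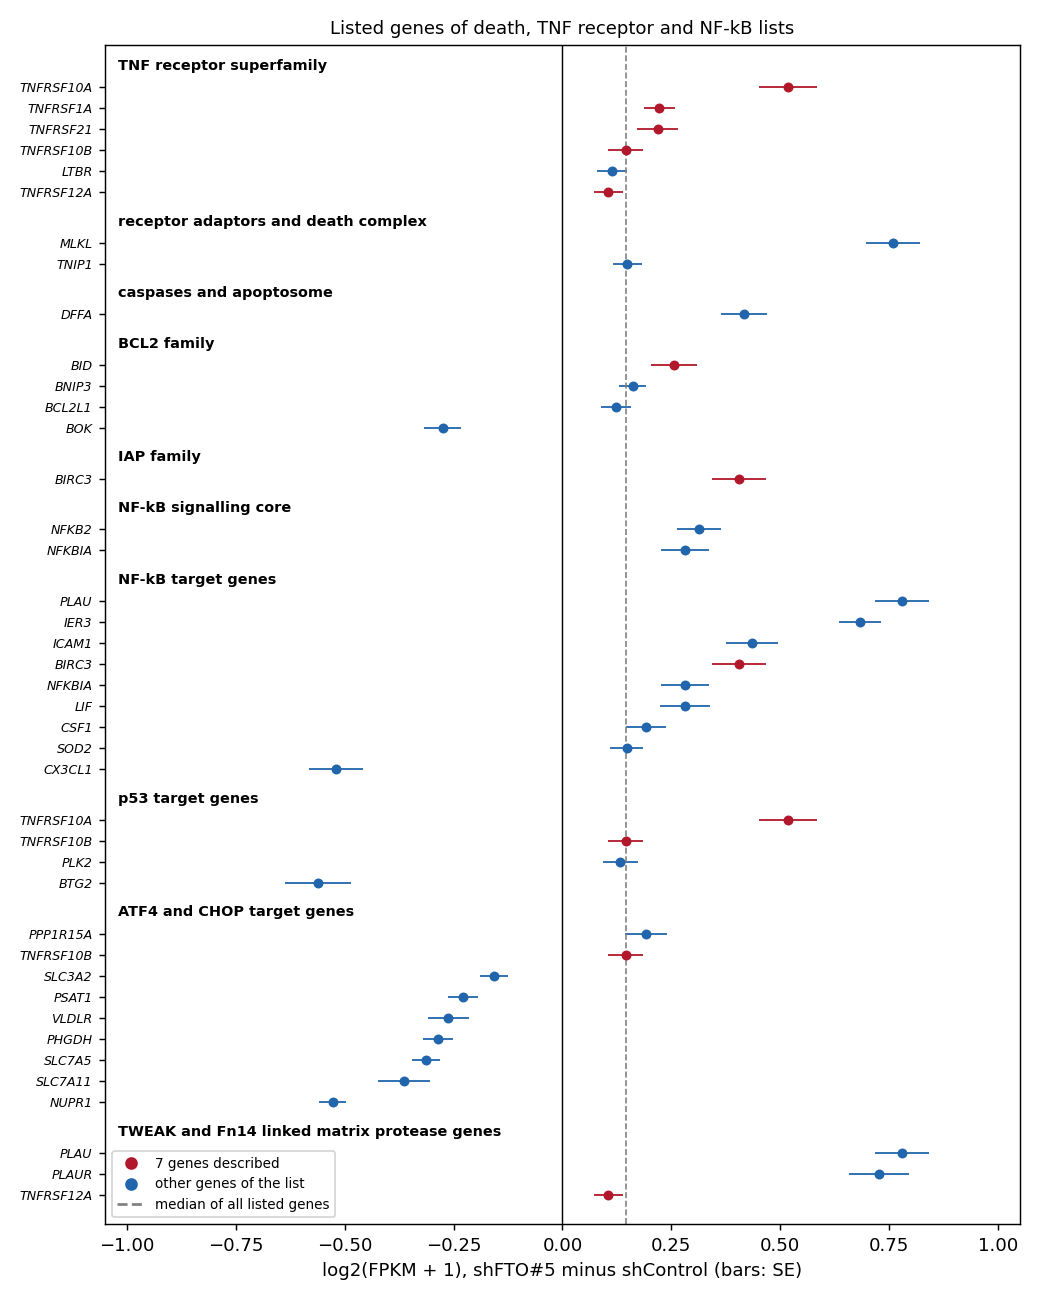
Log2 difference of shFTO#5 minus shControl (x axis, bars SE) for every gene of 10 lists that is in the table, with the 7 genes in red, other genes in blue and the median of all listed genes, 0.15, as a dashed line. The 6 TNF receptor genes and 8 of the 9 NF-kB targets in the table lie to the right of 0, and 7 of the 9 ATF4 and CHOP targets lie to the left.

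Downstream of the receptors, 2 of 26 adaptors and death complex genes (7.69%) were in the table, against 13.0% of all tested genes, and both were higher. MLKL, the executor of necroptosis, measured 7.03 and 7.53 FPKM with shFTO#5 and 3.77 and 4.01 FPKM with shControl, a log2 difference of 0.76 ± 0.06 (SE) that exceeded those of all 7 genes. It had 6.89 FPKM in each shFTO#2 library. TNIP1, a partner of the NF-kB inhibitor A20, had 0.15 ± 0.03, and 0.06 with centred libraries. Of 22 caspase and apoptosome genes, DFFA, the inhibitor of the apoptotic nuclease DFFB, was the one listed (4.55%), at 0.42 ± 0.05.

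The BCL2 family had 4 of 26 members in the table (15.4%), near the share over all tested genes. Besides BID, the anti-apoptotic BCL2L1 had a difference of 0.12 ± 0.03 (SE) and BNIP3, a mitochondrial mitophagy protein, 0.16 ± 0.03. BOK, a pro-apoptotic member, was lower, at 36.6 and 36.1 FPKM with shFTO#5 and 44.3 and 44.2 FPKM with shControl, a difference of -0.28 ± 0.04. The pro-apoptotic BID and the anti-apoptotic BCL2L1 thus both stood on the higher side, and the pro-apoptotic BOK on the lower. With centred libraries the differences were 0.17 for BID, 0.03 for BCL2L1 and -0.36 for BOK. The size of the BCL2L1 rise thus depended on the scaling. Of 8 genes of the inhibitor of apoptosis family, BIRC3 was the one listed.

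Of 22 core genes of NF-kB signalling 2 were in the table (9.09%), NFKB2, a subunit of the noncanonical pathway (0.31 ± 0.05, SE), and NFKBIA, the inhibitor that NF-kB itself induces (0.28 ± 0.06). Of 36 NF-kB targets 9 were listed (25.0%, against 13.0% of all tested genes), 8 higher and 1 lower, with a median of 0.28. Over all listed genes 62.9% were higher, and the other targets were not in the table. The 9 include BIRC3, which this contrast chose, and the list was drawn up with earlier results known. Beside BIRC3, the adhesion molecule ICAM1 measured 17.7 and 17.4 FPKM with shFTO#5 and 11.9 and 13.6 FPKM with shControl (0.43 ± 0.06). IER3, an early response gene, had 0.68 ± 0.05, the cytokine LIF 0.28 ± 0.06 and the cytokine CSF1 0.19 ± 0.05. SOD2, the mitochondrial superoxide dismutase, had 0.15 ± 0.04, and 0.06 with centred libraries. The lower one was CX3CL1, the chemokine fractalkine, at 1.80 FPKM in each shFTO#5 library and 3.05 and 2.98 FPKM with shControl (-0.52 ± 0.06). Several of these genes are also induced by other factors, and the cause of their change was not tested. Ligands of the TNF family were not in the table, which lists called genes only, so their levels are not known.

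TNFRSF10A and TNFRSF10B are textbook p53 targets. Of 34 genes of that list 4 were in the table (11.8%, near the 13.0% of all tested genes), both receptors included. The kinase PLK2 had 0.13 ± 0.04 (SE), and 0.04 with centred libraries, and the antiproliferative BTG2 -0.56 ± 0.08. TNFRSF10B is also a target of the stress factor CHOP. Of 20 ATF4 and CHOP targets 9 were in the table (45.0%, against 13.0% of all tested genes), 2 higher and 7 lower, with a median of -0.26. Over all listed genes 781 were higher and 461 lower. This list too was drawn up with earlier results known, so nothing is read from its share. The higher ones were TNFRSF10B and PPP1R15A, a phosphatase subunit (0.19 ± 0.05), and the lower ones ran from the stress regulator NUPR1 (-0.53 ± 0.03) to the amino acid transporter subunit SLC3A2 (-0.16 ± 0.03). Between them lay the cystine transporter SLC7A11 (-0.36 ± 0.06), the leucine transporter SLC7A5 (-0.31 ± 0.03), the serine synthesis enzymes PHGDH (-0.29 ± 0.03) and PSAT1 (-0.23 ± 0.03), and the lipoprotein receptor VLDLR (-0.26 ± 0.05). Of 10 genes linked to TWEAK, Fn14 and matrix proteolysis, 3 were in the table (30.0%), TNFRSF12A included, and all were higher. The urokinase PLAU had 0.78 ± 0.06 and the urokinase receptor PLAUR 0.73 ± 0.07, each several times the change of TNFRSF12A.

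The listed genes nearest to the median profile of the 7 over the 4 shFTO#5 and shControl libraries were NDUFB9, SLC29A1, RSL1D1, NASP and DDX21. Their Euclidean distances in log2(FPKM + 1) were 0.0157 to 0.0177, and their differences 0.22 to 0.23. Of the 7 genes, TNFRSF1A was nearest to that profile, at 0.0143, and TNFRSF10A farthest, at 0.426.

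GGACT, the most common core of the sequence in which m6A is placed, was counted in the longest protein-coding transcript of each gene in GENCODE release 29. The 7 genes had 2 to 5 copies each and a median of 1.47 per kilobase, against 0.939 per kilobase over 1222 listed genes with such a transcript. TNFRSF1A had 2.25 and BID 2.00 per kilobase, at the 94.4 and 91.6 percentile of the listed genes. BIRC3 had 0.385, at the 13.2 percentile. Of the 7, 4 were above the upper quartile of 1.41. The m6A libraries of the series were not analysed here, so whether any copy is methylated is not shown.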

How the data were processed

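The series holds 18 samples, and the 6 RNA-seq libraries entered the analysis, grouped by their titles; the 12 m6A libraries were not analysed here. Trim Galore 0.4.2, STAR, RSEM and hg38 appear in the submitters' processing notes, with no roles given. What the sources used here do not give is the differential test, the annotation release, the strand setting and the handling of reads shared between related genes.

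Per the file headers, the authors deposited FPKM for each library. The shFTO#5 and shControl values cover the 1242 genes called with shFTO#5. The shFTO#2 values cover the 766 entries called with shFTO#2. The authors also deposited a log2 fold change, a p-value and an adjusted p for each hairpin, limited to the genes called with it. The shFTO#5 fold changes ran control over knockdown in all 1242 genes, and the sign of all fold changes is reversed here. Numbers tested were recovered from adjusted p over p. FPKM times gene length, scaled by a library total, was a whole number of reads in all shFTO#5 and shControl values (tolerance 1e-05). Each total was not given but was itself chosen as the number that made the reads whole. Of 766 shFTO#2 values, 561 were tied to a gene by whole reads in both libraries, an agreeing fold change (within 0.15 in log2, or within the size of the fold change where larger) and gene order, 2 of them for the genes described.

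Limma 3.58.1 in R 4.3.3 with a mean-variance trend on log2(FPKM + 1) gave differences and standard errors, fitted on all 1242 genes for shFTO#5 and on all 3 groups over the 561 for shFTO#2. A minimum of 1 FPKM in 2 or more libraries removed no gene. The fit served for errors only, since it saw only called genes. Such genes favour a small spread, so the errors may be too small. The fit was also run on simulated data, with the same fixed spread setting for every gene and most genes unchanged. That differs from a table of called genes, so the run is no check of the errors given here. Genes named are the 7, FTO, listed pathway genes and the 5 nearest in profile; 1 gene of the lists is not reported here and is left out of their counts. The members, lists and motifs were chosen with earlier results of these data known. Alternatives were the pseudocount, the filter, 2 scalings, a replicate term and leaving out each library.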

Additional observations from a re-analysis of the deposited data

Results flagged for a closer look

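The cytokine gene CSF1, an NF-kB target of the lists, stood on opposite sides of both controls with the hairpins. It measured 36.9 and 35.0 FPKM with shFTO#5, 25.7 and 27.2 FPKM with shFTO#2, and 31.1 and 31.5 FPKM with shControl. The shFTO#5 minus shFTO#2 difference was 0.43 ± 0.05 (SE, log2), and the difference was not tested. It was the 1 such gene among the 17 named pathway genes with values for both hairpins. Its shFTO#2 value rests on the assignment by whole reads, gene order and an agreeing fold change.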

How the results depend on the processing

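The 7 genes were higher with shFTO#5 in all 76 combinations of gene and alternative that gave a value. The filter at 5 FPKM left BIRC3 out. Only the 2 scalings could have reversed a sign, because in each gene both shFTO#5 libraries lay above both shControl libraries. For the other alternatives the direction was fixed in advance. Their median log2 change of 0.22 was 0.13 with centred libraries and 0.17 after quantile normalization. With shFTO#2 the median over TNFRSF10A and TNFRSF10B was 0.31, and 0.16 with centred libraries, which lowered all shFTO#2 changes by 0.15. Of the 76 values, 10 differed from the reported one by over 1.5 times: 8 under the scalings, and 2 for TNFRSF12A, without shControl replicate 1 (0.05) or without shControl replicate 2 (0.16). The cause was not tested. Centring uses called genes only, most of them higher, so part of any general rise is removed with it. A replicate block left every difference as it was (median 0.22 with shFTO#5) and changed only the errors, for TNFRSF12A to 0.02, against 0.03 without it. The labels give no meaning to the replicate numbers, and the deviations of same-numbered libraries correlated at 0.09 between shFTO#5 and shControl, 0.22 between shFTO#2 and shControl and 0.12 between the hairpins.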
